A study of Mus musculus with 9 samples.

Results

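The genes described here are 10 genes of mouse astrocytes: the water channel gene Aqp4, the glutamate transporter genes Slc1a2 and Slc1a3, the glutamine synthetase gene Glul, the potassium channel gene Kcnj10, the membrane protein gene Mlc1, the connexin gene Gja1, the folate enzyme gene Aldh1l1, the calcium-binding protein gene S100b and the filament gene Gfap. They were found on the arrays through probe sets (groups of short probes against 1 transcript) whose annotation names 1 gene only. The 10 genes had 31 such probe sets, and 18194 genes of the array had at least 1. Each gene was read from its brightest probe set, by mean over all 9 arrays, and the others served as a check. A gene was tested where this probe set reached a log2 value of 4, taken here as the background level, on at least 3 of the 9 arrays. This left 12009 genes, among them 9 of the 10. Gfap was the exception.

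The study compared microvascular fragments, that is, isolated lengths of small brain vessels, with the brain tissue left without them. Embryonic fragments and embryonic rest of brain came from NMRI mice at embryonic day 18.5, their sex given as N/A, and adult fragments came from mice 1 year old of mixed C57/SV129 background, 1 female and 2 males. Each group had 3 arrays, described by the labels as biological replicates, and no transgene or treatment was named for any group. The RNA kit also differed, a micro kit for the embryonic groups and a mini kit for the adult one, so age, strain and kit differed together and cannot be told apart in any comparison of adult with embryonic samples. For rest of brain replicate 3, title and description differ in the embryonic day, and the title was followed. How the fragments were isolated is not given in the sources used here.

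Astrocytes wrap brain capillaries with flattened processes called endfeet. At the endfoot membrane, Aqp4 channels and Kcnj10 channels carry water and potassium, Mlc1 takes part in volume control, and gap junctions built from Gja1 couple neighbouring cells. Along the rest of the cell, Slc1a2 and Slc1a3 take up glutamate released by neurons, and Glul turns it into glutamine. In rodents astrocytes mature largely after birth, and Slc1a3 and Aldh1l1 are also known from radial glia, the progenitor cells of the embryonic brain.

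The label of the fragments was checked with vessel and neuron genes. Cldn5, a tight junction gene of brain endothelium, read 14.94 to 15.05 in embryonic fragments, 6.85 to 8.39 in rest of brain and 14.97 to 15.10 in adult fragments on the log2 scale. Snap25, a synaptic gene, read 9.89 to 10.24 in rest of brain, and was under 4 on 2 of 3 arrays in each fragment group. Array medians lay between 3.58 and 3.67. Embryonic fragment arrays differed among themselves: replicate 2 was the highest of its group for 11 of 11 tested neuronal markers, 10 of 11 radial glia and progenitor markers, 10 of 16 other astrocyte genes and 6 of the 9 tested members, against 26.2% of all tested genes. The mean log2 value of the 12 neuronal markers was 5.52, 6.44 and 5.56 on the 3 embryonic fragment arrays. Replicate 1 was the lowest of its group for 8 of 8 microglia and macrophage markers, 7 of 7 pericyte, 10 of 11 radial glia and progenitor, 6 of 7 choroid plexus and ependymal markers and 12 of 16 other astrocyte genes, against 37.4% of all tested genes. Where leaving out replicate 1 or 2 changed a count or moved a called fold by over 1.5 times, the value without it is given.

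In embryonic fragments, 7 of the 9 tested genes were lower than in embryonic rest of brain and 1, Glul, was higher, while Gja1 did not pass the test. Of all 12009 genes, 66.1% were called in this comparison, 37.2% as lower and 28.9% as higher. The median log2 difference was -3.88 over the 9 genes and -0.10 over all genes tested. A lower value in bulk RNA can mean fewer cells of a type or less RNA per cell, and these cannot be told apart. Without embryonic fragments replicate 1, and without replicate 2, the counts were again 7 lower and 1 higher.

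Between the ages, 7 of the 9 genes were higher in adult than in embryonic fragments and 2, Gja1 and Aldh1l1, were lower. Glul is among the 7 by its brightest probe set, while its second set was called lower. Of all genes, 57.1% were called, 27.4% as higher and 29.7% as lower. The median log2 difference was 2.37 over the 9 genes and -0.02 over all genes. Without embryonic fragments replicate 2, 7 were higher and 1 was lower, the call for Aldh1l1 being lost, and without replicate 1 the counts were again 7 and 2.

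Set against embryonic rest of brain, adult fragments had 3 genes higher (Slc1a2, S100b and Glul) and 5 lower (Aqp4, Slc1a3, Mlc1, Gja1 and Aldh1l1), and Kcnj10 did not pass the test. Here 76.0% of all genes were called, 33.1% as higher and 42.9% as lower, so 8 of 9 is near the background share. The median log2 difference was -0.85 over the 9 genes and -0.17 over all genes. Each pair of these comparisons shares a group of arrays, so they are not independent of each other. In every comparison the arrays of 8 members did not overlap between the groups, against 76.7%, 62.6% and 79.9% of all tested genes in the order given.

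**Figure D1:**
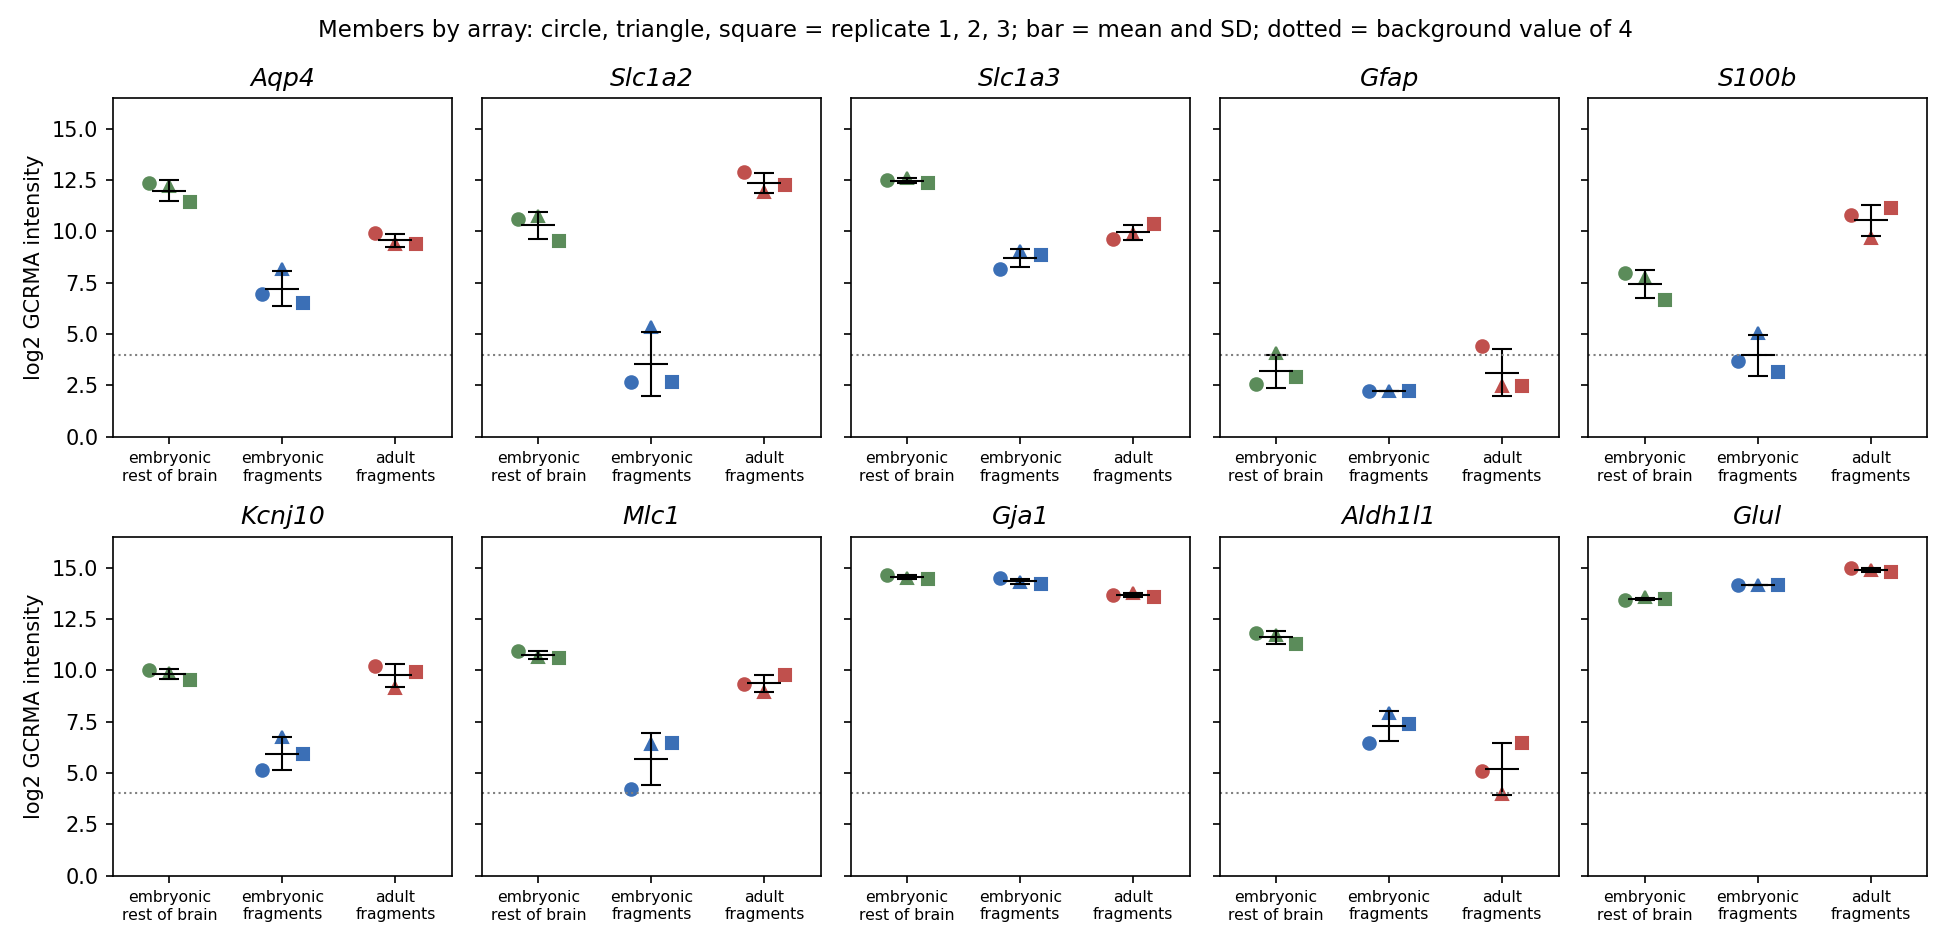
Log2 GCRMA intensity (vertical axis) of the 10 genes on each of the 9 arrays, by group; circle, triangle and square are replicates 1, 2 and 3, the bar is the group mean with its SD, and the dotted line is the background value of 4. Gja1 and Glul stayed above 13 on every array, Gfap lay near background, and for Aqp4, Slc1a2, Slc1a3, S100b, Kcnj10 and Mlc1 the embryonic fragments were the lowest group.

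Promoters are shown for 4 genes. Kcnj10, S100b and Slc1a3 were lower in embryonic fragments than in both other groups, and Glul was higher there than in rest of brain. The sequences are RefSeq's of build GRCm38.p6 and run 5′ to 3′ on the gene's own strand from 250 bases before to 50 bases after its start. Such a sequence was at hand for 9 of the 10 genes, all but Aqp4. Capitals mark every match, on either strand, to 6 motifs. These were TATAAA for the box of that name, GGGCGG for the GC box, CCAAT for the box named after it, TTGGCA for a nuclear factor I site, ACAAAG for the SOX core and TTCNNNGAA for the STAT core. Kcnj10 lies at chr1:172340960-172341259 on the plus strand, S100b at chr10:76253586-76253885 on the plus strand, Slc1a3 at chr15:8710758-8711057 on the minus strand and Glul at chr1:153899679-153899978 on the plus strand.
Kcnj10: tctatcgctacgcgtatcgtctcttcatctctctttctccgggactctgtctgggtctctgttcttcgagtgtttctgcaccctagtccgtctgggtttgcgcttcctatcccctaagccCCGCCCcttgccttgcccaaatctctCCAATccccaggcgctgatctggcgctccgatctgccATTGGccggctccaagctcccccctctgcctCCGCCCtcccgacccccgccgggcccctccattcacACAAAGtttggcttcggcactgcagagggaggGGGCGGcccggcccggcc
S100b: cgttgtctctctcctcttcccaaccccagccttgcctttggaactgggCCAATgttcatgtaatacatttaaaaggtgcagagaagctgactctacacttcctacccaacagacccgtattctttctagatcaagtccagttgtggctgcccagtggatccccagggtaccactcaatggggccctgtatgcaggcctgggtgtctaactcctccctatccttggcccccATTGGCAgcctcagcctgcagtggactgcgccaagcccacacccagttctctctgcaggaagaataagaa
Slc1a3: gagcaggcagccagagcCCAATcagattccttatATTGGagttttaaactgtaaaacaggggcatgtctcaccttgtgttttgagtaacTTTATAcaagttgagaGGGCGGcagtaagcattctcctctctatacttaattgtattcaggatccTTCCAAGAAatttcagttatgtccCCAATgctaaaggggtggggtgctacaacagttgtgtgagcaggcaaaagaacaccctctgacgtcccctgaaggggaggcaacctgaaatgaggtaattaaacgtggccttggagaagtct
Glul: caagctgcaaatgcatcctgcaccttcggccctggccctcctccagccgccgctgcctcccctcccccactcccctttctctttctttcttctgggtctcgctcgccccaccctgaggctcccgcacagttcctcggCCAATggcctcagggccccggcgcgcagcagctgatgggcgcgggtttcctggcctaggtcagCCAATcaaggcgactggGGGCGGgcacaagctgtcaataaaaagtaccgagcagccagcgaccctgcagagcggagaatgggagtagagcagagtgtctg

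The 4 windows differed in base composition. Kcnj10 held 63.7% G and C with 21 CpG pairs and Glul 64.3% with 17, while S100b held 53.7% with 3 and Slc1a3 45.3% with 3. The median over 32851 promoters of that length was 52.7% and 7 CpG pairs. The GC box was found in the promoters of Glul, Kcnj10, Aldh1l1 and Slc1a3, 4 of 9, and in 35.7% of all promoters. The CCAAT box was found in 6 of 9 and in 37.4% of all, and the TATA box in Slc1a3 alone among the 9 and in 13.6% of all. The nuclear factor I motif was found in S100b alone, where it overlaps a CCAAT match on the other strand, and in 14.1% of all promoters. The SOX core was found in Kcnj10 alone and in 18.7% of all, and the STAT core in Gfap and Slc1a3 and in 8.3% of all. These matches describe letters in the windows and say nothing of binding.

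Aqp4 encodes the main water channel of the endfoot. It read 6.93, 8.15 and 6.51 in embryonic fragments, 12.36, 12.19 and 11.41 in rest of brain and 9.95, 9.38 and 9.37 in adult fragments. The groups did not overlap, with rest of brain highest and embryonic fragments lowest. Group means were 7.20 ± 0.85, 11.99 ± 0.51 and 9.57 ± 0.33 (SD, n = 3). Embryonic fragments differed from rest of brain by -4.79 ± 0.42 (SE) on the log2 scale, 27.7-fold (limma adjusted p = 1.03e-05). Adult fragments were 2.37 ± 0.42 higher than embryonic ones, 5.16-fold (adjusted p = 0.00142), and differed from rest of brain by -2.42 ± 0.42 (adjusted p = 0.000708). In a second Aqp4 probe set, which was at background in embryonic fragments, the difference between the ages was 1.19 ± 0.47 and missed the threshold (adjusted p = 0.0597).

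Kcnj10 encodes an inward rectifier potassium channel that clears potassium from around neurons. It read 5.13, 6.74 and 5.90 in embryonic fragments, 10.02, 9.89 and 9.53 in rest of brain and 10.22, 9.14 and 9.91 in adult fragments. All embryonic fragment arrays lay below all others, and the arrays of adult fragments and rest of brain overlapped. The difference of embryonic fragments from rest of brain was -3.88 ± 0.41 (adjusted p = 3.36e-05), and adult fragments were 3.83 ± 0.41 higher than embryonic ones, 14.2-fold (adjusted p = 7.45e-05). Between adult fragments and rest of brain it was -0.06, with a 95% interval from -1.0 to 0.88 (adjusted p = 0.908). Its sign turned under cyclic loess normalization (0.10), without rest of brain replicate 1 (0.05) and without adult replicate 2 (0.25).

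Mlc1 encodes an astrocyte membrane protein of the endfoot. It read 4.20, 6.40 and 6.43 in embryonic fragments, 10.94, 10.64 and 10.60 in rest of brain and 9.35, 8.95 and 9.77 in adult fragments. Replicate 1 of the embryonic fragments was near background, and no groups overlapped. The difference of embryonic fragments from rest of brain was -5.05 ± 0.55, 33.1-fold (adjusted p = 3.89e-05), and adult fragments were 3.68 ± 0.55 higher than embryonic ones, 12.8-fold (adjusted p = 0.000494). Without embryonic fragments replicate 1 these were -4.31 and 2.94, and both kept their calls. Adult fragments were below rest of brain by a difference of -1.37 ± 0.55 (adjusted p = 0.0463). That call was lost in 10 of 22 alternatives, among them leaving out any 1 array of these 2 groups, with adjusted p from 0.0519 to 0.130.

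Gja1 encodes the main astrocyte connexin. It read 14.47, 14.32 and 14.20 in embryonic fragments, 14.64, 14.47 and 14.46 in rest of brain and 13.66, 13.76 and 13.59 in adult fragments. The embryonic groups overlapped, and the adult arrays lay below both. Embryonic fragments differed from rest of brain by -0.19 ± 0.11, with a 95% interval from -0.45 to 0.06 (adjusted p = 0.163), and this passed the threshold with array weights alone (-0.24, adjusted p = 0.0428). As a point estimate, the level in embryonic fragments was 87.4% of that in rest of brain, and the interval includes no difference. Adult fragments differed by -0.66 ± 0.11 from embryonic ones (adjusted p = 0.00115) and by -0.85 ± 0.11 from rest of brain (adjusted p = 0.000123). The Gja1 probe set used carries the maker's mark for possible cross-hybridization. All 6 Gja1 probe sets gave negative differences in both adult comparisons, 5 of them called against embryonic fragments and all 6 against rest of brain. Their sizes differed, from -0.42 to -2.71 against embryonic fragments and from -0.48 to -3.13 against rest of brain, the fifth set giving the largest in both.

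Slc1a2 encodes the glutamate transporter that is the more abundant in mature forebrain astrocytes. It read 2.66, 5.35 and 2.65 in embryonic fragments, 10.59, 10.77 and 9.52 in rest of brain and 12.88, 11.92 and 12.26 in adult fragments. On 2 of 3 embryonic fragment arrays it was under the background value, replicate 2 being the exception, and the groups did not overlap. The fitted difference of embryonic fragments from rest of brain was -6.74 ± 0.71 (adjusted p = 3.17e-05), and it was -5.84 with values under 4 set to 4. Adult fragments were 8.80 ± 0.71 higher than embryonic ones, 445-fold as fitted and 239-fold with values under 4 set to 4 (adjusted p of the fit = 1.32e-05). Without replicate 2 of the embryonic fragments, the array where Slc1a2 was above 4, the fitted differences were -7.64 and 9.70, still against values at background. Adult fragments were also above rest of brain, by 2.06 ± 0.71 (adjusted p = 0.0256). That last call was lost with no filter on low values (0.0663), with array weights (0.0502), and without rest of brain replicate 3 (0.0953), adult replicate 1 (0.0823) or adult replicate 3 (0.0524). A second Slc1a2 probe set gave -0.63 ± 0.49 there (adjusted p = 0.278).

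Slc1a3 encodes the glutamate transporter that appears first in development. It read 8.19, 9.05 and 8.86 in embryonic fragments, 12.50, 12.58 and 12.36 in rest of brain and 9.64, 9.87 and 10.37 in adult fragments. Rest of brain was highest, adult fragments intermediate and embryonic fragments lowest, with no overlap. The difference of embryonic fragments from rest of brain was -3.78 ± 0.25, 13.7-fold (adjusted p = 1.48e-06). Adult fragments were 1.26 ± 0.25 higher than embryonic ones, 2.4-fold (adjusted p = 0.00256), and differed by -2.52 ± 0.25 from rest of brain (adjusted p = 1.82e-05). The 2 glutamate transporters thus stood on opposite sides of rest of brain in adult fragments by their first probe sets, a contrast that the second Slc1a2 probe set did not show.

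Glul encodes glutamine synthetase, which forms glutamine from glutamate and ammonia. It read 14.14 on all 3 embryonic fragment arrays, 13.42, 13.54 and 13.48 in rest of brain and 14.98, 14.88 and 14.77 in adult fragments. The 3 embryonic fragment values were identical, which was true of 32 tested genes in that group, 10 in rest of brain and 6 in adult fragments, so the SD of 0 there is no measure of replicate error. That SD enters the fit, so the SEs and adjusted p-values of this probe set may be too small. Embryonic fragments were 0.67 ± 0.10 above rest of brain, 1.59-fold (adjusted p = 0.000264), and adult fragments were 0.73 ± 0.10 above embryonic ones, 1.66-fold (adjusted p = 0.000242). A second Glul probe set read 11.93, 12.12 and 12.02 in embryonic fragments, 10.64, 10.64 and 10.47 in rest of brain and 11.42, 11.39 and 11.60 in adult fragments. It too placed both fragment groups above rest of brain, by 1.44 ± 0.11 and 0.89 ± 0.11, but the ages in the opposite order, with a difference of -0.55 ± 0.11 (adjusted p = 0.00318). The direction between the ages is therefore unsettled for Glul.

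S100b encodes a calcium-binding protein of astrocytes that oligodendrocytes can also express. It read 3.68, 5.08 and 3.16 in embryonic fragments, 7.96, 7.72 and 6.67 in rest of brain and 10.80, 9.70 and 11.13 in adult fragments. Again 2 of 3 embryonic fragment arrays were under 4, and the groups did not overlap. The difference of embryonic fragments from rest of brain was -3.48 ± 0.57 (adjusted p = 0.000585), or -3.09 with values under 4 set to 4. Adult fragments were 6.57 ± 0.57 above embryonic fragments, or 6.19 with values under 4 set to 4, and 3.09 ± 0.57 above rest of brain, 8.54-fold (adjusted p = 0.000977). Mbp, a myelin gene of oligodendrocytes, read 6.13 to 7.86 in embryonic fragments, 10.20 to 11.44 in rest of brain and 10.11 to 10.46 in adult fragments, and its part in the S100b values was not tested. Choroid plexus and ependymal markers were also higher in adult than in embryonic fragments, 6 of 7 of them, and their part was not tested either.

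Aldh1l1 encodes a folate enzyme used as a general astrocyte marker. It read 6.48, 7.91 and 7.40 in embryonic fragments, 11.80, 11.74 and 11.26 in rest of brain and 5.11, 3.98 and 6.48 in adult fragments. Adult and embryonic fragments overlapped at their edges, where the highest adult and the lowest embryonic array both read 6.48, and adult replicate 2 was under 4. Embryonic fragments differed from rest of brain by -4.34 ± 0.59, 20.2-fold (adjusted p = 0.000186), and adult fragments by -6.41 ± 0.59, 85.0-fold (adjusted p = 1.11e-05). Adult fragments differed from embryonic ones by -2.07 ± 0.59 (adjusted p = 0.0160). That call was lost without embryonic fragments replicate 2 (-1.75, adjusted p = 0.0574) and when the 2 groups were fitted alone (adjusted p = 0.0574). The adult arrays also moved it, to -1.47 without replicate 2 and -2.72 without replicate 3, and moved the difference from rest of brain to -5.80 and -7.05.

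Gfap encodes the intermediate filament most used to stain astrocytes. Its strongest probe set read 2.24, 2.24 and 2.25 in embryonic fragments, 2.56, 4.09 and 2.92 in rest of brain and 4.44, 2.45 and 2.46 in adult fragments. It passed 4 on 1 array of rest of brain and 1 of adult fragments, and its other probe sets stayed under 4 on all 9 arrays. In a fit of all 18194 genes without the filter, its differences were -0.95 ± 0.62 between embryonic fragments and rest of brain (adjusted p = 0.294), 0.88 ± 0.62 between the ages (0.377) and -0.07 ± 0.62 between adult fragments and rest of brain (0.932). Values this near to background give no order of the groups.

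**Figure D2:**
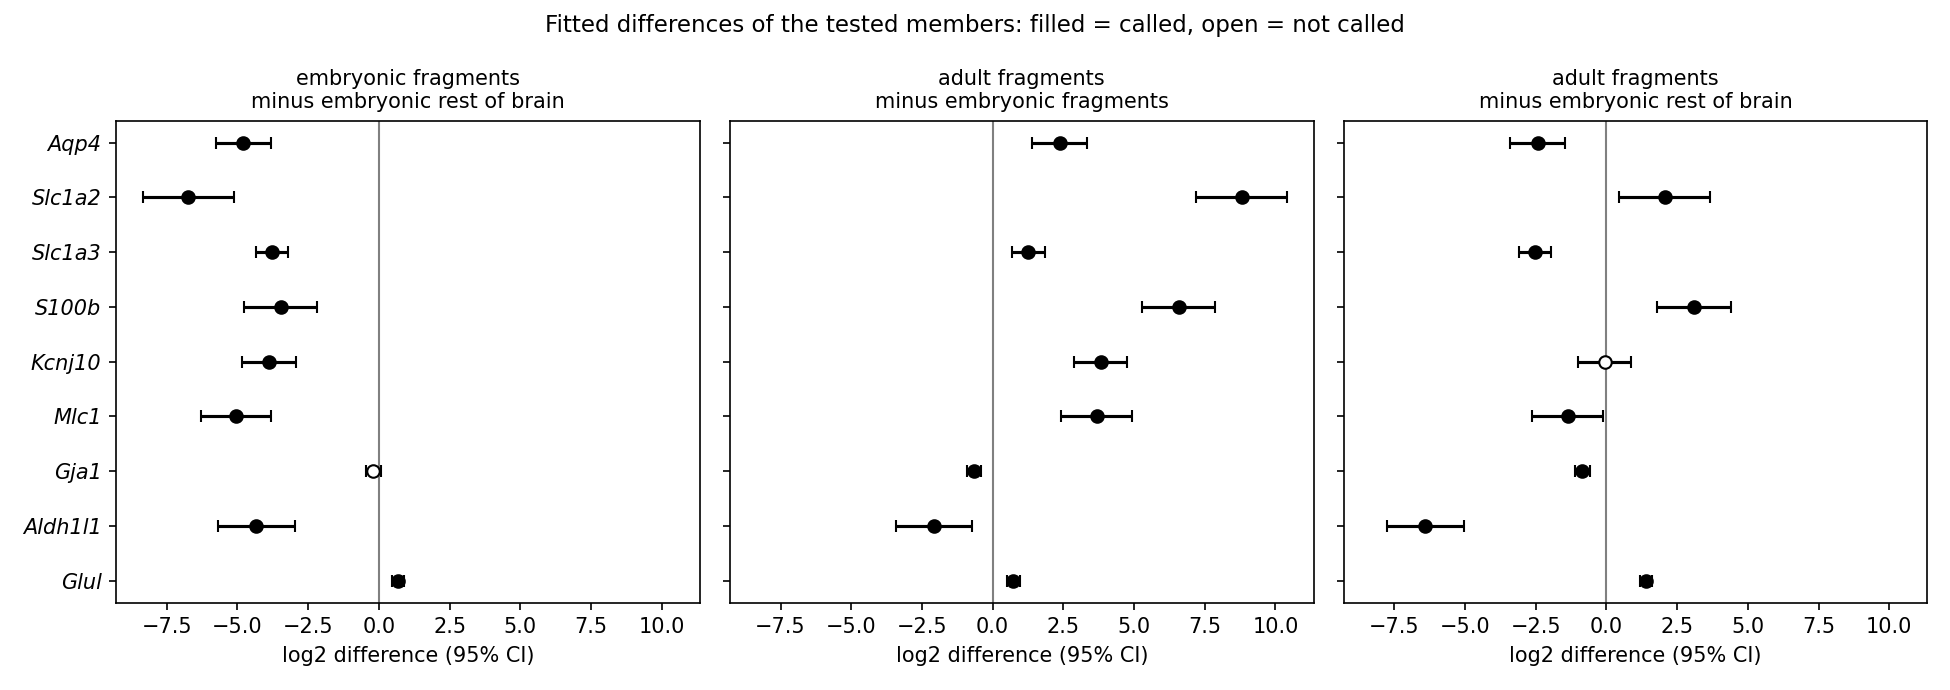
Fitted log2 differences (horizontal axis) of the 9 tested genes in the 3 comparisons, with 95% intervals; filled points passed an adjusted p of 0.05 and open points did not. Gja1 lies near 0 in the comparison of the embryonic groups, Kcnj10 near 0 in the comparison of adult fragments with rest of brain, and the intervals of Slc1a2 are the widest.

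Several genes had more than 1 probe set that could be tested, each of which was fitted beside the others. For Slc1a3, 3 probe sets gave differences of 1.26, 1.70 and 1.49 between the ages, all called, and the fourth, near background in both fragment groups, gave 0.52 ± 0.57 (adjusted p = 0.473). For Aqp4, Slc1a2 and Slc1a3, every probe set tested was called lower in embryonic fragments than in rest of brain. Kcnj10 and Mlc1 had a single probe set each, and the second sets of S100b and Aldh1l1 stayed under 4 on all arrays, so these 4 genes had no check of this kind.

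**Figure D3:**
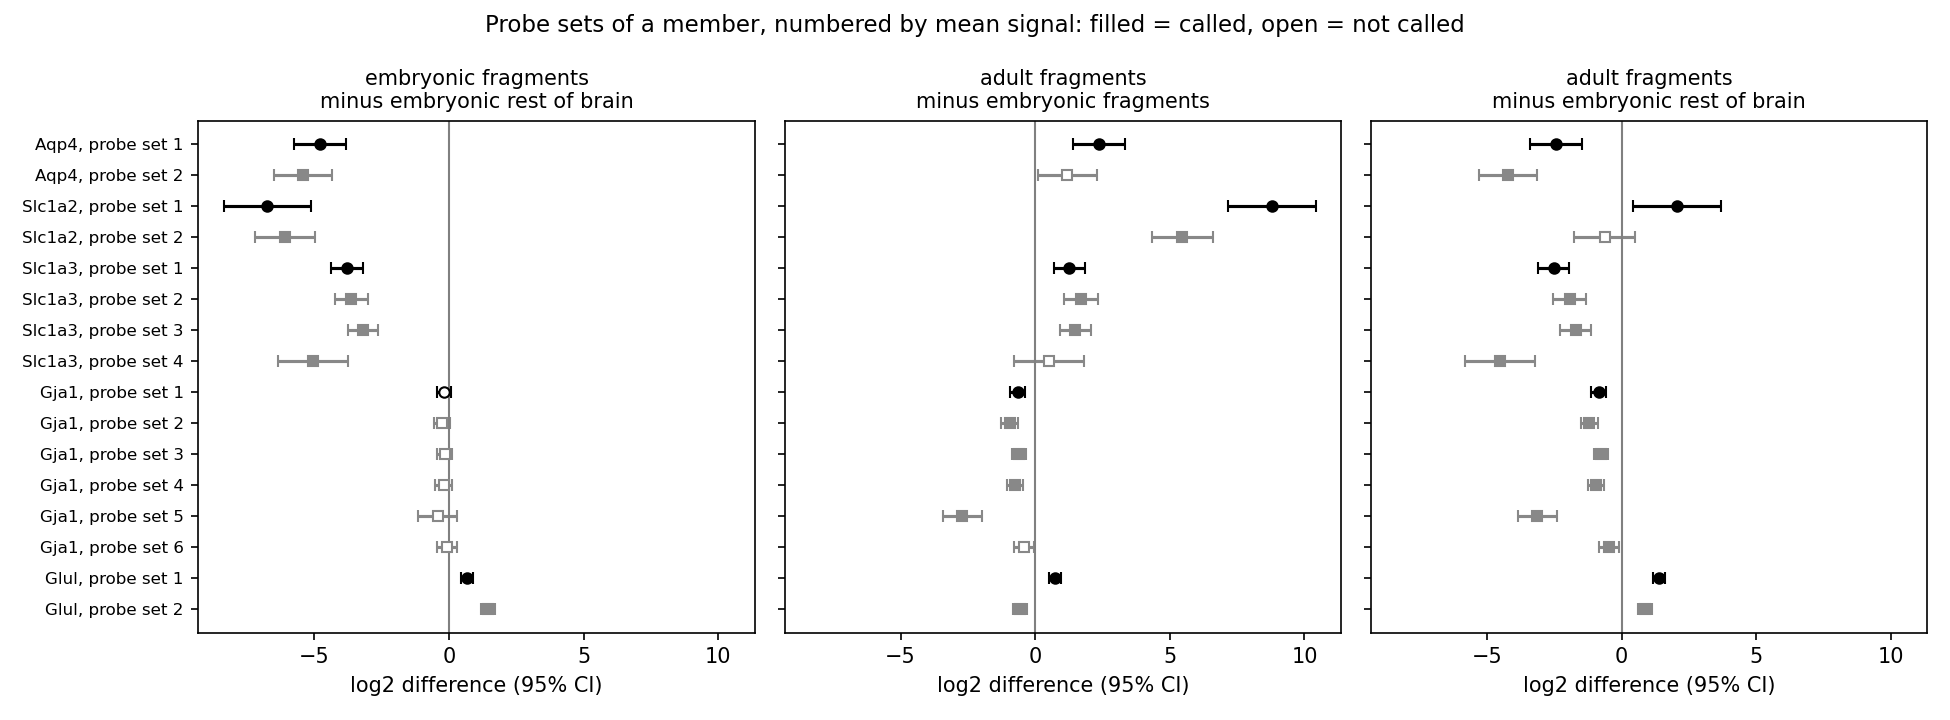
Log2 differences (horizontal axis) with 95% intervals for each testable probe set of the 5 genes with more than 1, numbered by mean signal; black circles are the probe sets used elsewhere, grey squares the checks, filled points were called. The Glul sets point in opposite directions between the ages, and the second Slc1a2 set lies at -0.63 in the comparison of adult fragments with rest of brain.

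Other genes of astrocytes were compared from a list of 18, of which 16 could be tested. In embryonic fragments all 16 were lower than in rest of brain, with a median log2 difference of -3.52, or -3.00 with values under 4 set to 4. Slc25a18, a mitochondrial glutamate carrier, was under 4 on all embryonic fragment arrays and at least 24.0-fold lower there, and Slc4a4, a bicarbonate transporter, differed by -4.83 ± 0.40 (adjusted p = 6.80e-06). In adult fragments 13 of the 16 were higher than in embryonic ones and Nfia, a transcription factor gene of gliogenesis, was lower (-0.47 ± 0.17, adjusted p = 0.0459), with a median of 1.84. The Nfia call was lost without embryonic fragments replicate 1 or 2 and under several other alternatives, and without replicate 1, 11 genes were higher. Clu, which encodes the secreted chaperone clusterin, was 4.46 ± 0.40 higher (adjusted p = 2.66e-05), and Ntsr2, a neurotensin receptor gene under 4 in all embryonic fragments, was at least 18.9-fold higher. Against rest of brain, 2 of the 16, Ntsr2 and Clu, were higher in adult fragments and 11 were lower, with a median of -1.49.

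Genes of endfoot anchoring and of endfoot partner proteins did not share one direction. Of 9 tested, 4 were higher and 3 lower in embryonic fragments than in rest of brain, with a median of 0.46. Utrn (utrophin) and Agrn (agrin) were higher, by 3.46 ± 0.10 and 1.53 ± 0.14 (adjusted p = 8.99e-09 and 1.26e-05), and Dtna, which encodes a dystrobrevin, differed by -3.32 ± 0.55 (adjusted p = 0.000590). Between the ages 3 were higher and 1, Agrn, was lower (-1.68 ± 0.14, adjusted p = 1.61e-05), with a median of 0.29. Sntb1, a syntrophin gene, was 2.19 ± 0.34 higher in adult fragments (adjusted p = 0.000611), and Utrn was 1.52 ± 0.10 higher (adjusted p = 4.37e-06), although a second Utrn probe set gave -0.16. Against rest of brain, adult fragments had 4 higher and 3 lower, with a median of 0.19. Which cells of the fragments carried the RNA of these genes was not tested.

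In the wider glutamate and glutamine cycle, 12 of 17 listed genes were tested. In embryonic fragments 4 were higher and 7 lower than in rest of brain, with a median of -0.61. Slc38a5, a glutamine transporter gene that was under 4 on 2 of 3 rest of brain arrays, was 9.54 ± 0.43 higher (9.23 with values under 4 set to 4, adjusted p = 1.16e-07), and Slc17a6, a vesicular glutamate transporter gene of neurons, differed by -6.85 ± 0.33 (adjusted p = 1.84e-07). Between the ages 2 were higher and 7 lower, with a median of -0.65. Slc1a1, a neuronal member of the glutamate transporter family, was 1.78 ± 0.18 higher in adult fragments (adjusted p = 4.96e-05), while Slc1a4, a neutral amino acid transporter of the same family, read 15.02, 14.76 and 14.90 in embryonic and 8.79, 8.80 and 8.20 in adult fragments (difference -6.30 ± 0.17, adjusted p = 2.47e-08). Without embryonic fragments replicate 2, 6 in place of 7 were lower in each of these comparisons, and without replicate 1, 1 was higher and 5 were lower between the ages. Against rest of brain, adult fragments had 3 higher and 7 lower, with a median of -0.58.

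Of the other connexins and pannexins, 6 of 10 were tested. In embryonic fragments 2 were higher and 4 lower than in rest of brain (median -2.97), and between the ages 2 were higher and 2 lower (median -0.04). Gjb6 and Gjb2, connexin genes known from astrocytes, were 2.6 ± 0.14 and 1.34 ± 0.10 higher in adult than in embryonic fragments (adjusted p = 1.40e-06 and 8.70e-06), where Gja1 was lower. Gja4, a connexin gene of arterial endothelium, differed by -1.72 ± 0.18 (adjusted p = 7.18e-05). Between the ages, 1 gene in place of 2 was lower without embryonic fragments replicate 2. Against rest of brain, adult fragments had 2 higher and 4 lower (median -1.0).

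Genes known to rise in reactive astrocytes were tested for 11 of 12. In embryonic fragments 6 were higher than in rest of brain and none was lower (median 0.71), led by Osmr, a cytokine receptor gene, at 7.49 ± 0.26 (adjusted p = 2.62e-08). Between the ages 4 were higher and 3 lower (median 0.34). Steap4, a metalloreductase gene under 4 in all embryonic fragments, was at least 69.8-fold higher in adult ones. Timp1, a protease inhibitor gene under 4 in all adult fragments, was at least 16.4-fold lower. Both were also under 4 on all rest of brain arrays. Each thus passed the filter only through the fragment group where it was high, and its call is no separate support. The counts were 4 higher and 2 lower without embryonic fragments replicate 1, and likewise without replicate 2. Adult fragments against rest of brain had 8 higher and 1 lower (median 2.09). Cells of the vessel wall also express several genes of this list.

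Marker lists of other cell types moved beside the members. All 10 endothelial markers were higher in embryonic fragments than in rest of brain (median 7.17), their summed signal lying at 17.36 to 17.55 on the log2 scale against 11.85 to 12.18, and in adult fragments at 17.64 to 17.71. Between the ages 3 endothelial markers were higher and 2 lower (median 0.42), or 2 and 2 without embryonic fragments replicate 2. All 11 tested neuronal markers were lower in embryonic fragments than in rest of brain (median -5.83) and 11 of 11 radial glia and progenitor markers were too (median -4.54). Between the ages 2 neuronal markers were higher and 6 lower (median -2.09, or -1.28 with values under 4 set to 4). Of the radial glia and progenitor markers 6 were lower and none higher, or 9 lower without embryonic fragments replicate 1. Their median was -2.37, or -1.83 with values under 4 set to 4.

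The summed neuronal signal was 15.87 to 16.21 in rest of brain, 10.51 to 11.44 in embryonic fragments, where Gria1 and Slc17a7 were under 4 on all arrays, and at most 10.63 in adult fragments, where 7 of 12 were. The summed radial glia and progenitor signal was 16.79 to 16.89, 14.40 to 15.25 and 10.44 to 11.16 in the same order. Fabp7, a fatty acid binding protein gene of radial glia, differed by -6.19 ± 0.34 between the ages (adjusted p = 1.40e-06). This was the opposite direction to 7 of the members by their brightest probe sets, with Glul among the 7 unsettled. Of 9 tested oligodendrocyte lineage markers, 8 were lower in embryonic fragments than in rest of brain (median -3.35), and between the ages 2 were higher and 2 lower (median -0.01), Mbp being 3.48 ± 0.45 higher (adjusted p = 0.000229). These were 2 higher and 1 lower without embryonic fragments replicate 1, and likewise without replicate 2. Choroid plexus and ependymal markers, with a summed signal of 15.71 to 16.22 in embryonic fragments and 16.80 to 16.87 in adult ones, were higher in adult fragments for 6 of 7 (median 2.18). Kl was at background in both embryonic groups and Foxj1 in both fragment groups, so each passed the filter only through the remaining group. Against rest of brain, adult fragments had 10 of 10 endothelial markers higher, 11 of 11 neuronal and 11 of 11 radial glia and progenitor markers lower, and 1 oligodendrocyte lineage marker higher and 7 lower. The part of these cell types in the members' values was not tested.

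**Figure D4:**
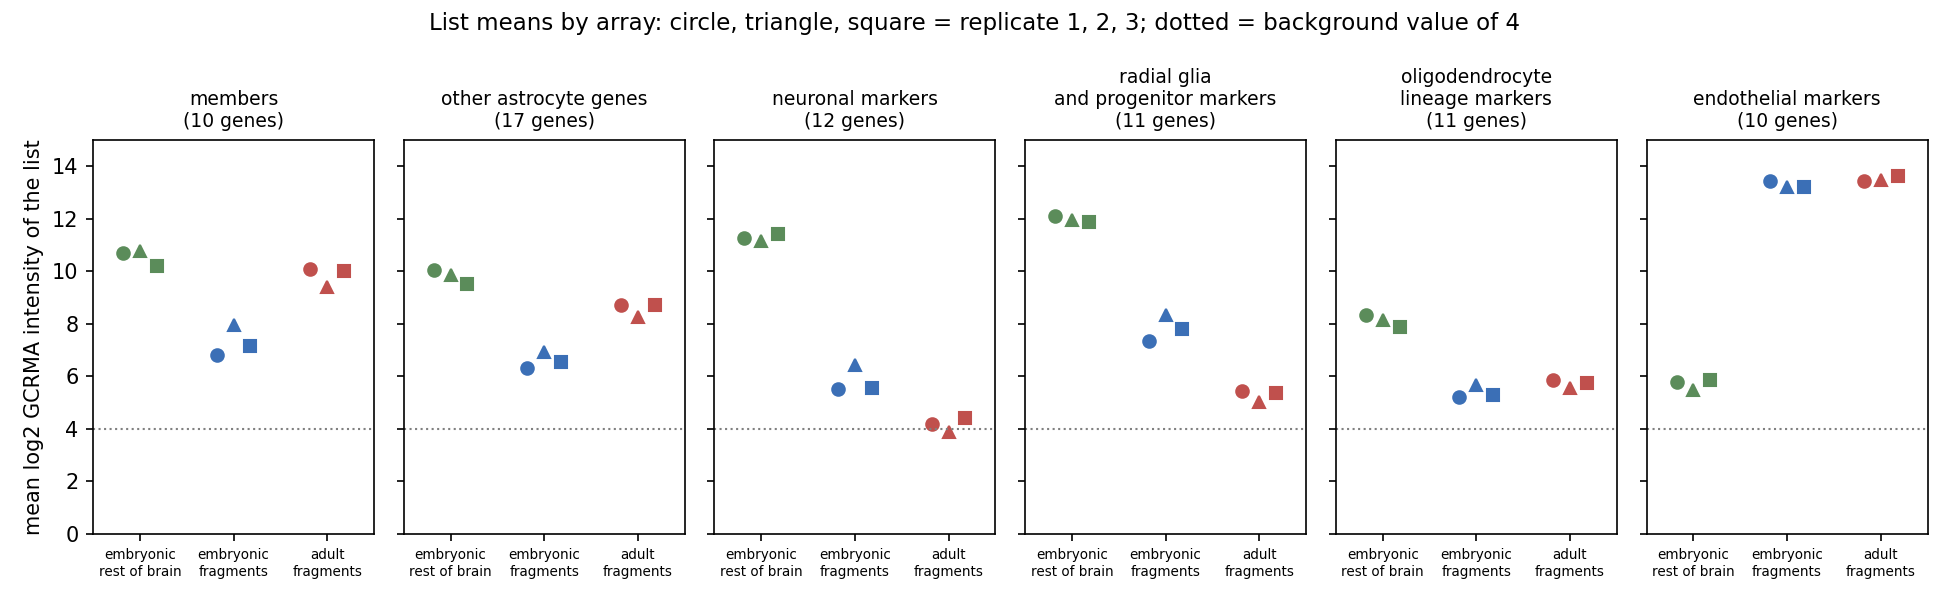
Mean log2 GCRMA intensity (vertical axis) of the members and of 5 marker lists on each array; circle, triangle and square are replicates 1, 2 and 3, and the dotted line is the background value of 4. Members and other astrocyte genes are lowest in embryonic fragments, while neuronal and radial glia markers are lowest in adult fragments and endothelial markers are high in both fragment groups.

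The order of the arrays within a group was shared by most members in rest of brain and by fewer in adult fragments. Rest of brain replicate 3 was the lowest of its group for 8 of the 9 tested members and for 16 of 16 other astrocyte genes, against 30.3% of all tested genes. It is the array whose title and description differ in the embryonic day, and whether that bears on its values was not tested. Without it, 8 members were called between the embryonic groups and 6 between adult fragments and rest of brain, against 8 in each with it. Adult replicate 2 was the lowest of its group for 5 of the 9 and for 10 of 16 other astrocyte genes, against 38.8% of all. The mean log2 value of the 10 members was 6.81, 7.94 and 7.15 in embryonic fragments, 10.68, 10.76 and 10.22 in rest of brain and 10.10, 9.40 and 10.01 in adult fragments.

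Genes with the most similar pattern were found by the root mean square distance over the 9 arrays after centring each gene on its mean. For Aqp4 these were Slc4a4, Vldlr and Kcna2, at distances of 0.235, 0.400 and 0.416 log2 units. For Slc1a2 they were Acsl6, Gda and S100b, at 1.31, 1.33 and 1.43. This distance grows with a gene's spread, and the group means of Slc1a2 ran from 3.55 to 12.35. Its larger distances therefore do not show that its pattern was unlike that of other genes. For Gja1 they were Smc6, Gas5 and Ppp2ca, at 0.0849, 0.0903 and 0.0930, and for Glul Pdzd8, Bmpr2 and Sacm1l, at 0.0669, 0.0775 and 0.0965. Small distances for the last 2 go with their small spread over the arrays.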

How the data were processed

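Gene expression of 9 mouse samples was measured on short oligonucleotide arrays after amplification of about 100 ng of total RNA, per the labels' protocols. The authors deposited log2 values for 45101 probe sets on each array, and GCRMA 2.6.0 and R 2.4.1 are named in the submitters' processing notes. GCRMA subtracts background by probe sequence and equalizes the arrays, so a change of total RNA per cell cannot be seen. Slide and scan date were not used here, so neither could be tested as a batch. The table had 0 unused sample columns and 0 identical array pairs. For arrays, their number limits the precision.

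The platform annotation names 1 gene for 34958 probe sets, several for 932 and none here for 9211. Symbols were looked up by Entrez identifier in RefSeq's table of GRCm38.p6, which held 34754 and changed 0. Of the members, Slc1a2 also had 1 probe set shared with another gene, which was left out.

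The 3 comparisons were contrasts of a linear model in limma 3.58.1, run under R 4.3.3 (lmFit, eBayes, 2-sided), on all 9 arrays without covariates, with Benjamini-Hochberg adjustment over 12009 genes and calls at an adjusted p under 0.05. The total degrees of freedom were 8.43. The fit was tested on simulated data. "At least" folds set values under 4 to 4. No gene set test was run: the 14 lists of 147 genes, 8 of them without a probe set of their own, are described by counts and medians. The members and lists were chosen with earlier results of these data known. Named list genes were, per list and comparison, the 2 largest called differences in the direction most took and the 1 largest in the other; those printed are a choice from them, and Ntsr2 and Foxj1 are also named where a count or a background value asks for it. P-values weigh a group difference against the spread between these arrays within groups, which eBayes moderates using all tested genes.

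Same-numbered embryonic fragments and rest of brain arrays deviated together, with correlations of 0.194, 0.199 and 0.217 across genes, and their numbers were taken to pair the samples. Values as high were also seen between embryonic and adult arrays. Embryonic fragments replicate 1 gave 0.208 with adult replicate 2, and replicate 3 gave 0.214 with adult replicate 3. Rest of brain replicate 1 gave 0.201 with adult replicate 2. The correlations thus do not settle the pairing. The values printed come from the fit without this pairing, and the blocked fit is an alternative. Same-numbered adult and embryonic arrays gave correlations of either sign. The 22 alternatives covered normalization, filters, probe sets, array weights, the prior, the replicate block and leaving out each array.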

Additional observations from a re-analysis of the deposited data

How the results depend on the processing

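Every member called in the comparison of the embryonic groups stayed called in the same direction under each of the 22 alternatives that could test it. Without probe sets whose names carry the maker's marks x, s or a, 0 members were higher there, since Glul has only sets marked a, and 1 was lower between the ages. With the second probe set of each gene, which only some members have, 4 were higher between the ages, and against rest of brain adult fragments had 5 called, 1 of them higher. With the 2 groups fitted alone, 1 was lower between the ages, as Aldh1l1 was lost. Leaving out 1 array gave 1 to 2 lower between the ages, the lower count without embryonic fragments replicate 2, and 6 to 8 called between adult fragments and rest of brain. Reversed differences were those of Glul (-0.55) and Utrn (-0.16) between the ages and of Slc1a2 (-0.63) between adult fragments and rest of brain, all with the second probe set, and of Kcnj10 in that last comparison under cyclic loess (0.10), without rest of brain replicate 1 (0.05) and without adult fragments replicate 2 (0.25), where leaving out 1 array gave -0.29 to 0.25. The causes were not tested.

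With the replicate number as a block over the embryonic pairs, the counts of called members were 8, 9 and 8 in the 3 comparisons, as without it, and Mlc1 between adult fragments and rest of brain kept its call (-1.37, adjusted p = 0.0491). With the block over all 9 arrays, where the pairing of adults is by number alone, Mlc1 lost it (adjusted p = 0.0544) and 7 members were called there. The block changed no other member's call. Signal near background limits Gfap in all groups and Slc1a2 and S100b in embryonic fragments.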

Other observations

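The remaining marker lists describe what else the fragments held. Between embryonic fragments and rest of brain, 7 of 7 tested pericyte markers were higher (median log2 difference 2.72), led by Higd1b at 3.94 ± 0.27 (limma adjusted p = 1.90e-06). So were 3 of 5 smooth muscle markers (median 2.85, or 2.39 with values under 4 set to 4) and 8 of 8 microglia and macrophage markers (median 3.22). The latter were led by Mrc1, a macrophage receptor gene, at 4.78 ± 0.31 (adjusted p = 1.33e-06). Lower were 7 of 8 fibroblast and meningeal markers (median -2.31) and 3 of 7 choroid plexus and ependymal markers (median -1.12).

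Between the ages, 5 of 5 smooth muscle markers were higher in adult fragments (median 4.62, or 3.18 with values under 4 set to 4). Among them was Myh11, a contractile myosin gene, at 5.42 ± 0.47 (adjusted p = 2.17e-05). Cnn1, another of this list, was under 4 on all arrays of both embryonic groups and passed the filter only through adult fragments. Of the choroid plexus and ependymal markers, Kl was at least 38.2-fold higher. It was under 4 on all arrays of both embryonic groups, so it too passed the filter only through adult fragments. Pericyte markers had 2 higher and 1 lower (median 0.23), fibroblast and meningeal markers 2 and 2 (median 0.08), and microglia and macrophage markers 1 and 1 (median 0.57), Mrc1 differing by -4.84 ± 0.31 (adjusted p = 3.72e-06). Without embryonic fragments replicate 2, the last list had 3 higher and 1 lower, and without replicate 1 it had 1 higher and 2 lower. Without replicate 1, 4 smooth muscle markers were higher and 2 choroid plexus and ependymal markers lower in embryonic fragments than in rest of brain. Between adult fragments and rest of brain, 7 of 7 pericyte, 5 of 5 smooth muscle and 7 of 8 microglia and macrophage markers were higher, 7 of 8 fibroblast and meningeal markers were lower, and of the choroid plexus and ependymal markers 3 were higher and 2 lower, or 4 and 2 without embryonic fragments replicate 1 or 2.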
